A study of Mus musculus with 8 samples.

Results

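The HOX genes are the homeodomain transcription factor genes of the 4 mammalian Hox clusters. They were taken from the deposited table by symbol, as Hoxa, Hoxb, Hoxc or Hoxd followed by a number. This gave 39 genes on 40 identifiers, since Hoxd4 is listed on 2, of 53801 identifiers in all. The libraries came from CD45-CD31- stromal cells, which lack a leukocyte and an endothelial surface marker, sorted from intestinal ulcers of LTβRYFP mice. All mice had received indomethacin, which blocks cyclooxygenases and can cause intestinal ulcers, so no untreated cells are compared here. One fraction carried the reporter (YFP-positive, labelled YFP+, 4 libraries) and was set against the fraction without it (YFP-negative, labelled YFP-, 4 libraries), with replicate numbers 1 to 4 in each. The labels name the small intestine with no segment, give no age or strain, and do not say which cells express the reporter, whether libraries are separate animals, or what libraries of equal number share. The p-values given here thus cover the spread among these libraries, which may be technical.

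In mammals each Hox cluster holds a row of genes in one direction of transcription, and genes at the same place in different clusters are paralogues that share a number. Low-numbered (3′) genes are expressed with more anterior limits along the body axis and high-numbered (5′) genes with more posterior ones, in embryos and, in many connective tissues, in adult fibroblasts as well. In the developing gut, HOX proteins in the mesenchyme help set regional identity, and they bind DNA together with cofactors of the PBX and MEIS families.

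Libraries held 12481608 to 29385718 counts in genes, and 15945 genes passed the count filter. On the first principal component, with 35.5% of the variance, the YFP-positive and the YFP-negative library of number 2 lay at 78.7 and 92.5 and the other 6 between -46.2 and -12.4. The sorted fractions carried fibroblast transcripts throughout, with a sum of 21519 to 34902 CPM (counts scaled to a common library size with edgeR's TMM factors) for 7 fibroblast genes in YFP-positive and 26116 to 52017 CPM in YFP-negative libraries. Markers of cells outside the gate were low but present. They summed to 15.4 to 50.7 CPM in YFP-positive and 10.2 to 25.6 CPM in YFP-negative libraries for 8 leukocyte genes, of which Itgam was at 0, and to 28.7 to 130.2 CPM and 42.5 to 101.4 CPM for 5 endothelial genes. In bulk RNA, fewer cells that express a gene and less RNA per cell cannot be told apart.

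Nearly all HOX counts of these cells were in paralogue groups 1 to 8. Of 39 genes, 13 reached a mean of 1 CPM over the 8 libraries, among them Hoxa2 and Hoxa7, the run from Hoxb2 to Hoxb8, Hoxc4 and Hoxc5, and Hoxd8. Another 18 lay below 1 CPM, and 8 could not be read from the table for a reason of counting given with the bar chart of zeros. The B cluster was the only one with every gene countable, and 7 of its 10 genes were detected, with Hoxb1 below them and Hoxb9 and Hoxb13 above them in number left out. The A cluster had 3 detected of 11, the C cluster 2 of 9 and the D cluster 1 of 9.

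**Figure D1:**
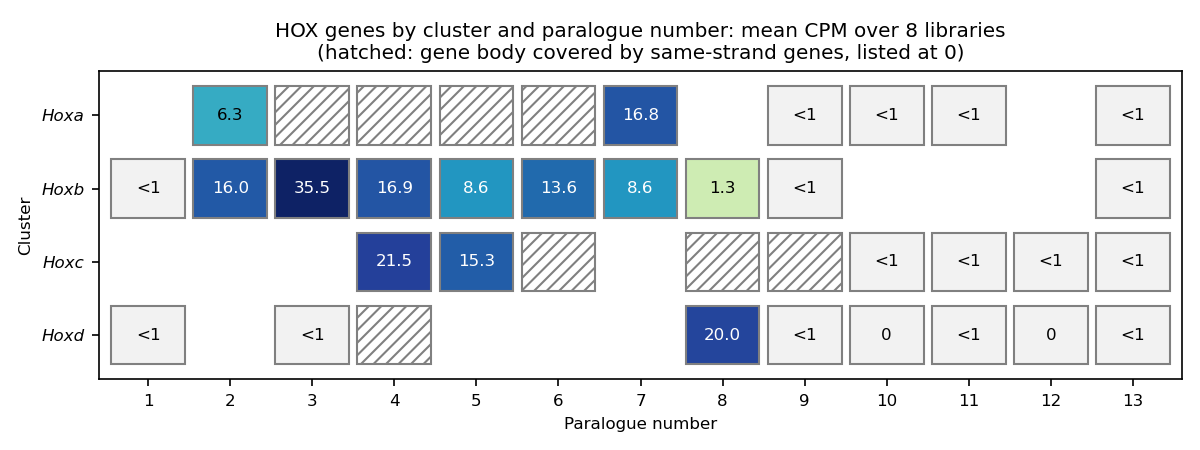
Mean CPM over the 8 libraries of the HOX genes reported here, with the 4 clusters as rows and the paralogue number as columns; grey cells lie below 1 CPM and hatched cells are genes whose whole body lies under other genes of the same strand. Detected genes drawn run from 2 to 8, and the grey or hatched cells fill every column from 9 to 13.

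Above paralogue number 8 almost nothing was counted. The 16 genes numbered 9 to 13, of which 15 could be counted, held 166 counts among the 171959234 counts of the 8 libraries, against 33167 counts in the 16 countable genes numbered 1 to 8. Hoxd10 and Hoxd12 had no count in any library, which allows up to 0.0174 CPM over the 8 libraries (3 counts; counting error only), and for Hoxd10 only 911 of the 3182 bases of its body were free to count. The highest mean of the 15 was 0.350 CPM, that of Hoxd9. Hoxd9 had 1, 14, 3 and 0 counts in YFP-positive libraries 1 to 4, and 11, 2, 25 and 1 counts in YFP-negative libraries 1 to 4. Hoxc10 had 14, 0, 5 and 0 counts in YFP-positive and 1, 0, 9 and 5 counts in YFP-negative libraries. Hoxd13 had 0 counts in each YFP-positive library and 0, 0, 1 and 13 counts in YFP-negative libraries. The few posterior counts were spread unevenly over libraries, and for several genes most were in YFP-positive 2. That library held 15 of the 21 counts of Hoxc13 and 6 of the 8 of Hoxa9. It also held 4 of the 7 counts of Hoxa10 and all 6 of Hoxb13. For Hoxc10 and Hoxd13 the most counts were in other libraries. Hoxd9 had most counts in YFP-negative 3 and its highest CPM (0.967) in YFP-positive 2. The Hoxc13 value there, 1.04 CPM, was the only one of these genes above 1 CPM. At the other end of the clusters Hoxb1 had 16 counts in all, 13 of them in YFP-positive 4, Hoxd1 had 1 count and Hoxd3 had 4.

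A zero in this table is not always a silent gene. Hoxa3, Hoxa4, Hoxa5, Hoxa6, Hoxc6, Hoxc8, Hoxc9 and Hoxd4 were listed at 0 in all 8 libraries, while neighbours such as Hoxa7, Hoxc4 and Hoxc5 held 2809 to 3987 counts over the 8 libraries. In GENCODE M21 the whole body of each of these 8 genes, introns included, lies under other genes of the same strand. Hoxa3 (chr6:52169062-52213336, minus strand, GRCm38) spans Hoxa4, Hoxa5 and Hoxa6 and itself lies within the noncoding gene Gm28308 (chr6:52163359-52213339). Hoxc5 (chr15:102967443-103017429, plus strand) spans Hoxc6, Hoxc8 and Hoxc9. Hoxd4 (chr2:74711929-74729160, plus strand) lies within Hoxd3 (chr2:74711927-74748442), and its second identifier has no entry in that annotation.

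The same held for genes outside the clusters. Of 475 protein-coding genes whose bodies lay wholly under other genes of the same strand, 469 (98.7%) had 0 counts in all 8 libraries. Of 863 that were covered only when the opposite strand was included, 24.0% had 0 counts, as had 4.58% of 8845 partly covered genes and 23.4% of 11784 free of other genes. Among 379 covered genes with at least 500 exon bases in no other gene's exon, 373 (98.4%) were still at 0. The table therefore has the pattern of reads assigned over whole gene bodies, by strand, with reads in more than one gene left out. No statement on the expression of the 8 covered HOX genes can be made from it. Gm28308, which has 4233 of its 49981 bases free, held 97, 66, 92 and 181 counts in YFP-positive and 75, 33, 135 and 137 counts in YFP-negative libraries, and these cannot be given to any HOX gene.

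**Figure D2:**
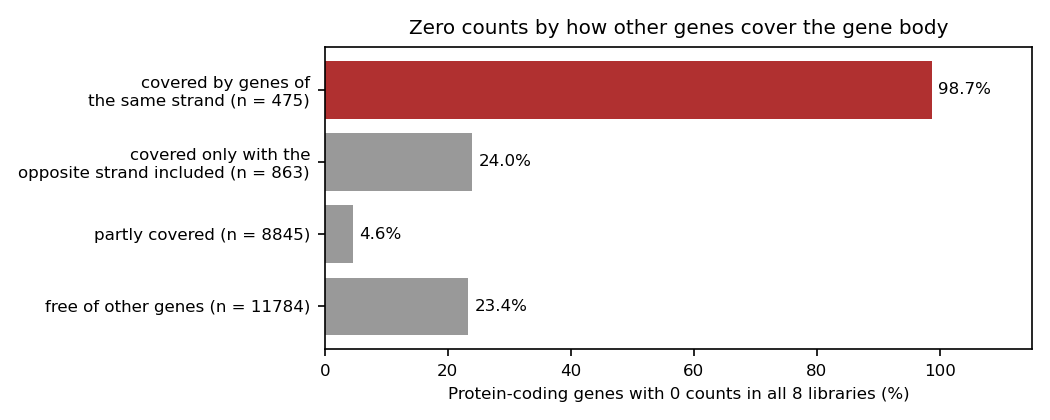
Share of protein-coding genes with 0 counts in all 8 libraries, in %, by how other annotated genes cover the gene body. The bar for bodies wholly under same-strand genes, where 8 HOX genes fall, reaches 98.7%, and the other bars lie at 24.0% or below.

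Partial cover also touches levels. Free to count were 942 of the 2415 bases of Hoxa2, 19568 of the 49987 bases of Hoxc5, 647 of the 5098 bases of Hoxc10, 526 of the 36516 bases of Hoxd3 and 3889 of the 7460 bases of Hoxd11. A low value of Hoxc10 or Hoxd3 is therefore a lower limit on what the gene made. Comparisons of one gene between libraries are made over the same bases in each.

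Levels were compared between genes per kilobase of annotated exon. Hoxb3 and Hoxc4 led, each at 8.36 CPM per kb (SD over 8 libraries 1.54 for Hoxb3 and 3.24 for Hoxc4), followed by Hoxd8 at 7.30 ± 4.32, Hoxb6 at 6.93 ± 2.16, Hoxb4 at 6.60 ± 0.76, Hoxa7 at 5.85 ± 3.46 and Hoxb7 at 5.57 ± 3.10 CPM per kb. No gene differed from the next in this order beyond their spread, although Hoxb3 was above Hoxb4 in 7 of 8 libraries. Hoxc5, Hoxb2, Hoxa2 and Hoxb5 lay between 3.08 and 4.94 CPM per kb and Hoxb8 at 0.51 ± 0.22 CPM per kb. Within the A cluster Hoxa7 came before Hoxa2, but counted over the exon bases left free Hoxa2 came first. Over exon bases that no other gene's exon covers, Hoxb3 stood at 17.8 CPM per kb and Hoxc4 at 8.36, and Hoxb2 came before Hoxb7. That length leaves out bases under exons of either strand (2001 of 4251 exon bases stay for Hoxb3), while all counts of the gene are kept. With counting by strand it would overstate Hoxb3 and Hoxb2, whose exons are all free on their own strand. Within the B cluster Hoxb3 was first and Hoxb8 last, while per kb of gene body Hoxb4 was first at 5.02 CPM per kb and Hoxb3, whose body spans 24605 bases, was last but one at 1.44. Hoxb8 was last of that cluster under each of the 4 lengths tried. Across clusters the order also depended on the length. Per kb of free gene body Hoxc4 stood at 1.20 CPM per kb and Hoxc5 at 0.78. On that length Hoxa2 stood at 6.71 and Hoxd8 at 6.04 CPM per kb, so the lead of Hoxb3 and Hoxc4 holds per kb of exon only.

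Setting the YFP-positive fraction against the YFP-negative one asks whether the reporter marks stroma with another HOX code. No HOX gene passed the test. All 13 tested genes, which are the 13 detected, had an adjusted p of 0.99985 (edgeR, Benjamini-Hochberg over 15945 genes), and 0 of 13 had an unadjusted p under 0.05. Over all genes the same fit called 0% (325 had an unadjusted p under 0.05). With the replicate number as a block 0 of 13 were called either, at a lowest adjusted p of 0.379, where that fit called 0.696% of all genes higher and 1.59% lower, 2.28% in all. The point estimates were higher in YFP-positive cells for 9 genes and lower for 4, with log2 fold changes between -0.26 and 0.42. Their median was 0.11, against 0.0045 over all genes tested. In 0 of 13 genes did the groups separate without overlap, against 1.55% of all genes.

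Hoxc4, at the 3′ end of the C cluster, came closest in the blocked fit. It had 22.0, 14.6, 36.9 and 23.2 CPM in YFP-positive libraries 1 to 4, and 12.7, 15.8, 29.7 and 17.0 CPM in YFP-negative libraries 1 to 4. The YFP-positive library was the higher of the pair for 3 of 4 numbers, and the groups overlapped. The means were 24.2 ± 9.28 CPM and 18.8 ± 7.50 CPM (SD, n = 4 each), a log2 fold change of 0.36 ± 0.33 (SE), and with the block 0.37 ± 0.16 with an unadjusted p of 0.0337 and an adjusted p of 0.379 (edgeR). Its neighbour Hoxc5 had 12.8, 10.9, 23.2 and 16.6 CPM in YFP-positive and 16.7, 7.41, 21.2 and 13.4 CPM in YFP-negative libraries, again with overlap and with a blocked log2 fold change of 0.14 ± 0.18.

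Hoxa2, known for patterning the hindbrain and the arch mesenchyme, had the largest log2 fold change. It had 6.79, 6.84, 8.48 and 6.89 CPM in YFP-positive libraries and 3.45, 3.49, 5.40 and 9.26 CPM in YFP-negative libraries. YFP-negative 4 was the highest of the 8 and the other YFP-negative libraries were the lowest 3. The log2 fold change was 0.42 ± 0.36 and with the block 0.53 ± 0.29 (adjusted p = 0.562, edgeR).

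Hoxb6 had the lowest fold change, with 10.3, 10.1, 19.3 and 9.78 CPM in YFP-positive and 10.1, 13.2, 19.2 and 17.0 CPM in YFP-negative libraries. YFP-positive 3 stood well above the other YFP-positive libraries and next to YFP-negative 3. The log2 fold change was -0.26 ± 0.31, with a blocked adjusted p of 0.688 (edgeR). Hoxb3 and Hoxb4, the other leading B cluster genes, overlapped throughout. Hoxb3 had 37.6, 28.3, 39.4 and 40.8 CPM in YFP-positive and 24.3, 32.2, 38.7 and 42.9 CPM in YFP-negative libraries. Hoxb4 had 17.4, 14.4, 19.6 and 17.8 CPM in YFP-positive and 16.5, 14.7, 15.8 and 19.3 CPM in YFP-negative libraries. Hoxb5 lay between 6.99 and 9.70 CPM in YFP-positive and 6.82 and 10.1 CPM in YFP-negative libraries, and Hoxb8 between 0.83 and 2.00 CPM and between 0.78 and 2.33 CPM.

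The intervals show which sizes these data leave. For Hoxb4 the 95% confidence interval of the YFP-positive over YFP-negative ratio was 0.827 to 1.31 with the block, for Hoxb3 0.882 to 1.30 and for Hoxb2 0.848 to 1.39. For Hoxb8, the gene with the fewest counts of the 13, it was 0.359 to 2.12. In the authors' deposited table, none of the 13 genes (0 of 13) had an adjusted p of 0.05 or below, and the lowest was 0.507, also for Hoxc4.

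**Figure D3:**
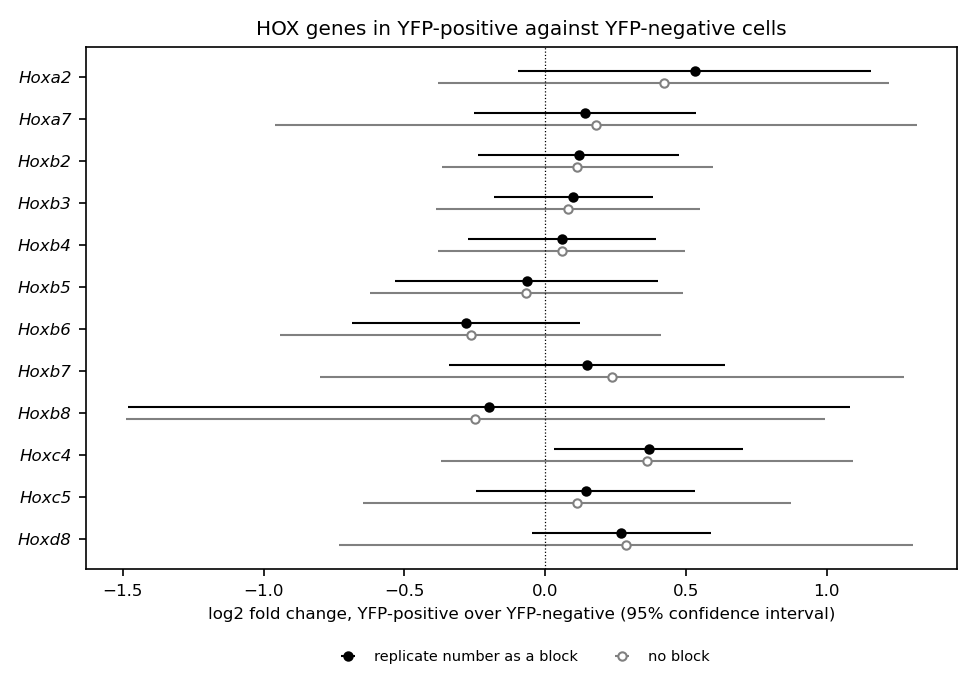
Log2 fold change of YFP-positive over YFP-negative cells with its 95% confidence interval for the tested HOX genes reported here, with the replicate number as a block (filled) and without it (open). The interval excludes 0 for Hoxc4 in the blocked fit alone, where the adjusted p was 0.379, and Hoxb8 has the widest.

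Among the 4 replicate numbers, 6 of the 13 HOX genes differed (edgeR F test in the fit with group and number, adjusted over 15945 genes). The same test called 39.3% of all genes, so a count of 6 of 13 is close to the background and is no result about HOX genes. The 6 were Hoxa7, Hoxb6, Hoxb7, Hoxc4, Hoxc5 and Hoxd8. Each had its highest mean in number 3, and each has a paralogue number from 4 to 8, as 9 of the 13 tested genes do. No test set these genes against the 4 tested genes numbered 1 to 3.

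Hoxd8, the only detected gene of the D cluster, had the lowest p among the numbers. It had 14.4, 16.4, 43.4 and 14.0 CPM in YFP-positive libraries 1 to 4, and 14.6, 14.1, 33.6 and 9.77 CPM in YFP-negative libraries 1 to 4. Both libraries of number 3 lay at more than any other library, the lower of them 2.04 times the highest of the other 6. The mean of number 3 was 3.24 times that of number 4 (adjusted p = 2.1e-05, edgeR F test), whereas YFP-positive and YFP-negative means were 22.1 ± 14.3 CPM and 18.0 ± 10.6 CPM (SD, n = 4 each).

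Hoxa7 had 11.4, 17.5, 35.1 and 7.48 CPM in YFP-positive and 7.79, 22.2, 24.6 and 8.50 CPM in YFP-negative libraries. In both fractions number 3 was highest and number 2 next, and the number 3 mean was 3.74 times that of number 4 (adjusted p = 6.5e-05, edgeR F test). Hoxb7, its paralogue in the B cluster, had 8.47, 5.66, 18.3 and 4.83 CPM in YFP-positive and 7.29, 4.52, 13.2 and 6.58 CPM in YFP-negative libraries. Here too number 3 was highest in both fractions, but number 2 was among the lowest (3.09 times between number 3 and number 2, adjusted p = 0.0021, edgeR F test).

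Hoxc4, Hoxc5 and Hoxb6, with the values given above, followed with adjusted p of 0.0024, 0.0075 and 0.042 (edgeR F test). Hoxb2 and Hoxb8 had both number 3 libraries above the other 6 without being called. Hoxb2 had 16.3, 13.3, 18.8 and 18.2 CPM in YFP-positive and 14.9, 14.6, 19.2 and 12.8 CPM in YFP-negative libraries. In all, both number 3 libraries were the top 2 of the 8 for 8 of the 13 HOX genes and for 7.19% of all genes tested, a pattern singled out after the values were seen and given with no test.

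Leaving out a number changed this count. Without the libraries of number 3 the F test called 1 HOX gene, Hoxa7, and without those of number 2, which stand apart, it called 5, the same as before but for Hoxc5. Without number 1 or number 4 it called 6 in each case, and Hoxb3 replaced Hoxb6 when number 1 was left out. Over all genes the F test called 5202 without number 3 and 3299 without number 2, against 6270 with all numbers. It called 5917 genes without number 1 and 5724 without number 4. Number 3 also had the least epithelial RNA: 7 epithelial markers summed to 0.600 CPM in YFP-positive 3 and 1.28 CPM in YFP-negative 3, against 4.52 to 118 CPM in the other 6 libraries. Krt8, Krt19 and Krt20 were at 0 in YFP-positive 3, and all 7 had counts in some library. Some stromal markers, picked after their values were seen, also peaked in number 3. Pdgfra had 2025 CPM in YFP-positive 3 and 1967 in YFP-negative 3 (other libraries at most 1806). Pdgfrb had 397 and 372 CPM (at most 287) and Cspg4 189 and 157 CPM (at most 153). The sum of 7 fibroblast markers did not: 29018 and 37422 CPM, within the 21519 to 52017 CPM of the other 6. The part of these markers in the HOX differences was not tested.

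**Figure D4:**
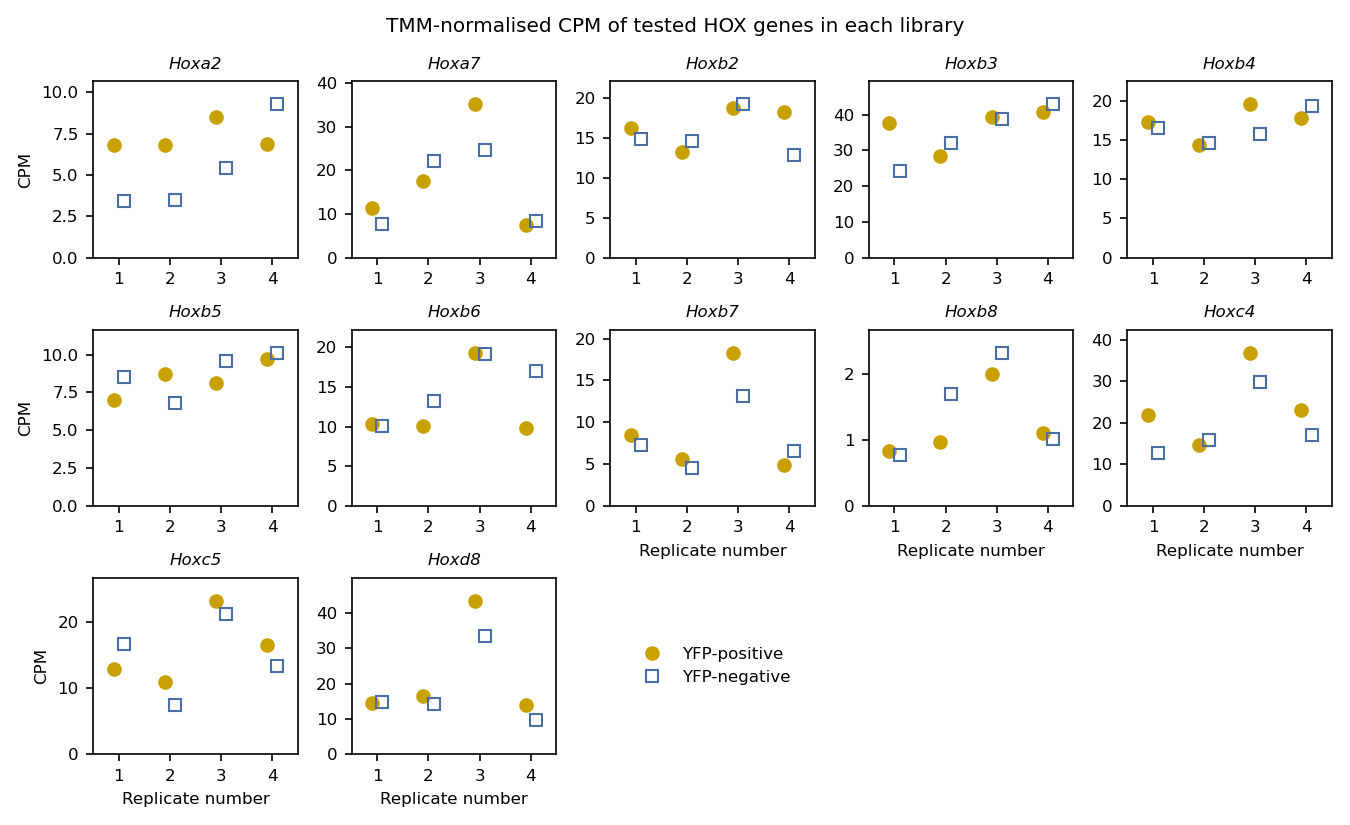
CPM of the tested HOX genes reported here by replicate number (x axis), with YFP-positive libraries as filled circles and YFP-negative libraries as open squares; each y axis starts at 0 and has its own scale. Hoxd8, Hoxa7, Hoxb7, Hoxc4 and Hoxc5 peak at number 3 in both fractions, Hoxd8 at 43.4 and 33.6 CPM, while Hoxb4 lies between 14.4 and 19.6 CPM in all 8 libraries.

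Summed over the 13 genes, HOX transcripts made up 167, 152, 278 and 174 CPM in YFP-positive and 141, 153, 236 and 174 CPM in YFP-negative libraries (193 ± 57.5 and 176 ± 42.1 CPM, SD, n = 4 each). Number 3 was highest in both fractions and the fractions overlapped. Paralogue groups 6 to 8 supplied 27.1%, 33.3%, 42.5% and 21.4% of that sum in YFP-positive and 28.8%, 36.4%, 39.4% and 24.6% in YFP-negative libraries. The order of the 4 numbers by this share (3, 2, 1, 4) was the same in both fractions. The means, 31.1 ± 9.06% and 32.3 ± 6.80% (SD, n = 4 each), differed by less than the spread within either fraction. By cluster, the B genes summed to 102 ± 18.2 and 99.4 ± 17.1 CPM, the A genes to 28.9 ± 14.0 and 25.0 ± 7.81 CPM, the C genes to 40.0 ± 14.6 and 33.5 ± 12.1 CPM, and Hoxd8 alone made the D sum. The A, C and D sums leave out the 8 covered genes.

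**Figure D5:**
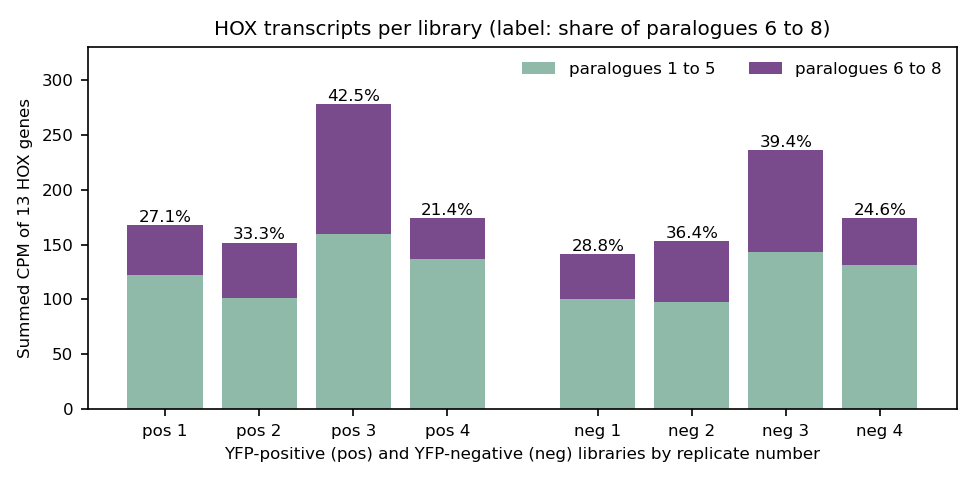
Summed CPM of the 13 detected HOX genes in each library, split into paralogue groups 1 to 5 and 6 to 8, with YFP-positive libraries on the left; the label is the share of groups 6 to 8 in %. Number 3 has the tallest bar and the largest share in both fractions, at 42.5% and 39.4%.

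Promoter sequence was available from RefSeq (GRCm38.p6) for 22 of the 39 genes, as 24 windows from 250 bases before to 50 after a transcription start. These windows held a median of 14.5 CpG dinucleotides (4 to 45), against 7 over 32851 windows of all genes. Motifs were searched on both strands. TTTATG, the core of sites bound by CDX factors, was in 5 of 24 windows (20.8%) and in 11.9% of all windows. AGGTCA, a core motif bound by nuclear receptors such as the retinoic acid receptors, was in 7 (29.2%) and in 16.3% of all. TGATTNAT, a PBX and HOX composite site, was in 2 (8.33%) and in 3.22%, and TGACAG, a MEIS-type site, in 2 (8.33%) and in 19.2%. None of these motifs contains another, and a match is a string of letters, not a shown site.

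The 250 bases before the RefSeq start are shown for the pair of genes that varied most with the replicate number, Hoxd8 and Hoxa7, for Hoxc4, which came closest to a difference between the fractions, and for Hoxb4, which varied little; Hoxb7 is named only. The sequences run 5′ to 3′ on the gene's strand, and capitals mark the motif matches, TTTATG in Hoxa7 and AGGTCA or its reverse complement TGACCT in the others. They lie at chr2:74704365-74704614 (plus strand) for Hoxd8, chr6:52218574-52218823 (minus strand, inside the GENCODE gene body) for Hoxa7, chr15:103034145-103034394 (plus strand, inside the gene body) for Hoxc4 and chr11:96318017-96318266 (plus strand) for Hoxb4.
Hoxd8: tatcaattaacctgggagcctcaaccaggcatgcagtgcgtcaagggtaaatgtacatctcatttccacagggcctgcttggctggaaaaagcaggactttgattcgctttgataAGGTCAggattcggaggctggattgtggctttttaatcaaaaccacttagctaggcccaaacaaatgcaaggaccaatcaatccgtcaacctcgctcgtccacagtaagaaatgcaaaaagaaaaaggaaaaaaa
Hoxa7: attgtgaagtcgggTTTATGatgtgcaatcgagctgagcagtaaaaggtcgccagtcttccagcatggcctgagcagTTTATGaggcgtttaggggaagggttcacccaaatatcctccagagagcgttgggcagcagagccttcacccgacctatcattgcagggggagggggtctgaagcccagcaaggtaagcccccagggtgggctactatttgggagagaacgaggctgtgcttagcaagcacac
Hoxc4: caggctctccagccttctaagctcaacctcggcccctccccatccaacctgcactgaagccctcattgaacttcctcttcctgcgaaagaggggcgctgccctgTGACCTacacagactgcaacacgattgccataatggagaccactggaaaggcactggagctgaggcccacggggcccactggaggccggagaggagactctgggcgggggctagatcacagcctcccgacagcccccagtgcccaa
Hoxb4: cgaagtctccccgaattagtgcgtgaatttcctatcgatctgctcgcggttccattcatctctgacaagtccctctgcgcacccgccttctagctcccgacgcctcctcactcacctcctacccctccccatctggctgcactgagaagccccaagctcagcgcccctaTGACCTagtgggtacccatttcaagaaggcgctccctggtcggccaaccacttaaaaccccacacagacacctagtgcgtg
Hoxa7 held TTTATG 2 times, at bases 15 to 20 and 78 to 83, and Hoxd8 held AGGTCA at bases 116 to 121. The matches in Hoxc4 (bases 105 to 110) and Hoxb4 (bases 170 to 175) are on the other strand. AGGTCA thus stood before the start of Hoxd8 and Hoxc4, which differed among numbers, and also of Hoxb4, for which no such difference was called.

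Of the genes that act with HOX proteins, 2 cofactors were called lower in YFP-positive cells in edgeR, with the block and not without it. The list of PBX, MEIS, PREP and TGIF family genes had 10 tested of 11 members. Without the block 0 were called, as for every other list; with it 0 were higher and 2 lower, where 0.696% of all genes were called higher and 1.59% lower. The median log2 fold change of the list was -0.18 with the block, against 0.0048 over all genes. Tgif1 and Tgif2, at -0.20 and -0.31 with the block, enter this median. One of the 2 genes called lower was Meis2. Meis2, a partner of PBX and HOX proteins, had 144, 157, 131 and 157 CPM in YFP-positive and 186, 182, 156 and 191 CPM in YFP-negative libraries. YFP-negative 3 was the only one to overlap, and the blocked log2 fold change was -0.28 ± 0.07 (adjusted p = 0.038 with the block and 0.99985 without, edgeR). Of 7 other settings with the block, Meis2 was called in 3, among them DESeq2 (adjusted p = 0.0058). Leaving out number 1, 3 or 4 took the call from it, at blocked adjusted p of 0.167, 0.15 and 0.151 (edgeR), as did scaling by library sizes alone (0.232).

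Regulators upstream of the clusters gave no call. Of 11 genes, 7 were tested, and 0 were higher and 0 lower with the block (median log2 fold change 0.10). Rxra, a retinoid X receptor, averaged 104 ± 30.0 CPM in YFP-positive and 99.6 ± 30.2 CPM in YFP-negative cells, and Rara, a retinoic acid receptor, 53.7 ± 14.3 and 52.4 ± 15.6 CPM (SD, n = 4 each). The Cdx genes, which activate central and posterior Hox genes in embryos, were under the count filter, with 69 counts for Cdx1, 25 for Cdx2 and 29 for Cdx4 over all 8 libraries.

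The Polycomb and trithorax genes, whose products keep Hox genes silent or active through histone marks, were all 26 tested. With the block 0 were higher and 1 lower, at a list median of -0.045, where 1.59% of all genes were called lower, so that a count of 1 of 26 is near the background. That gene was Kdm6b, a demethylase that removes the repressive histone mark set by Polycomb, with 530, 580, 414 and 226 CPM in YFP-positive and 692, 693, 449 and 386 CPM in YFP-negative libraries. It fell in 4 of 4 pairs within overlapping groups, by 0.38 ± 0.09 on the log2 scale (adjusted p = 0.049 with the block and 0.99985 without, edgeR), and was called in 3 of 7 other settings with the block. The call was lost without number 1, 2 or 4 (blocked adjusted p = 0.218, 0.056 and 0.139, edgeR) and with library sizes alone (0.065).

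Of 24 other transcription factors of the gut mesenchyme 14 were tested, and with the block 2 were higher, 1 was lower and 11 did not pass (median 0.12), where 0.696% of all genes were called higher and 1.59% lower. Tbx2, a T-box repressor, had 94.99, 108, 157 and 114 CPM in YFP-positive and 60.1, 87.5, 112 and 74.3 CPM in YFP-negative libraries. The groups overlapped, and it rose in 4 of 4 pairs, with a blocked log2 fold change of 0.52 ± 0.08 (adjusted p = 0.0020 with the block and 0.99985 without, edgeR), and was called in 7 of 7 other settings with the block. Nkx2-3, a homeobox gene needed for normal gut and spleen development, had 167, 133, 220 and 198 CPM in YFP-positive and 112, 108, 186 and 160 CPM in YFP-negative libraries. Again with overlap, it rose in 4 of 4 pairs by a log2 fold change of 0.36 ± 0.07 (adjusted p = 0.015 with the block and 0.99985 without, edgeR; called in 5 of 7, not without number 1 or 3, at 0.088 and 0.061).

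Osr1, a zinc finger gene of embryonic mesoderm and connective tissue, had 11.6, 22.4, 25.5 and 24.5 CPM in YFP-positive and 22.8, 29.2, 47.0 and 41.5 CPM in YFP-negative libraries. YFP-positive libraries 3 and 4 lay above YFP-negative 1, yet it fell in 4 of 4 pairs, by 0.75 ± 0.13 on the log2 scale (adjusted p = 0.0055 with the block and 0.99985 without, edgeR; called in 6 of 7, not without number 3, at 0.086). In the authors' deposited table the adjusted p (DESeq2) was 0.0075 for Meis2 and 0.00084 for Kdm6b. It was 2.1e-05 for Tbx2, 0.0020 for Nkx2-3 and 0.00019 for Osr1. Beside the blocked calls, several marker sums differed one way in 4 of 4 pairs, and their part was not tested. Enteric glia markers (5 genes) summed to 4.28 to 7.32 CPM in YFP-positive and 7.13 to 44.6 CPM in YFP-negative libraries, lower in each pair. S100b was at 0 in all YFP-positive libraries, but reached only 0.557 CPM in any library. Erbb3 went the other way in numbers 2 and 4 (5.80 and 2.34 CPM in YFP-positive, 1.96 and 1.92 CPM in YFP-negative libraries). The sum of 6 smooth muscle markers was higher in each pair (448 to 1032 CPM in YFP-positive and 373 to 700 CPM in YFP-negative libraries). Myh11, Acta2 and Des were higher in each pair. Cnn1 was lower in YFP-positive libraries in numbers 2 and 3 (3.52 and 7.40 against 5.28 and 7.76 CPM), and Actg2 and Tagln were lower in number 3. The sums of 7 fibroblast and 4 pericyte markers (1013 to 1277 CPM in YFP-positive and 1158 to 1571 CPM in YFP-negative libraries) were lower in each pair, but their members did not go together. Among fibroblast markers the collagens and Dcn make up most of the sum, while Pdgfrb was higher in YFP-positive libraries in 3 of 4 pairs and Pdgfra in 2 of 4, and among pericyte markers Rgs5 was lower and Cspg4 higher in 4 of 4. The share of mitochondrially encoded counts was also lower in each pair (7.71% to 9.43% in YFP-positive and 8.07% to 12.4% in YFP-negative libraries). Foxf1 and Foxl1, forkhead genes of the gut mesenchyme, were among the covered genes at 0, so nothing can be said of them.

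The noncoding RNAs and Evx genes of the clusters gave no call with or without the block (0 higher and 0 lower of 6 tested, of 18 in the table; blocked median 0.31). Hotairm1, an antisense RNA at the 3′ end of the A cluster, averaged 18.4 ± 4.44 CPM in YFP-positive and 17.8 ± 1.06 CPM in YFP-negative cells, Hoxaas3 16.2 ± 4.31 and 13.5 ± 2.52 CPM, and Hoxaas2 9.75 ± 5.43 and 8.15 ± 5.78 CPM (SD, n = 4 each). Hoxb3os, antisense to Hoxb3 and Hoxb2 and named after its values were seen, had 9.68, 10.5, 9.28 and 9.90 CPM in YFP-positive and 4.68, 5.88, 6.17 and 8.75 CPM in YFP-negative libraries. It was the only gene of the 6 tested in this list whose groups did not overlap, where 1.55% of all genes tested had no overlap. Hoxb3os did not pass the test (log2 fold change 0.63 ± 0.27, unadjusted p = 0.0409, edgeR). Its adjusted p in edgeR was 0.99985, and 0.229 in the blocked fit. That the counting used strand is known only from the pattern of zeros given above, so reads of the genes on the opposite strand may enter this value. Hotair had 1 count and Hottip 0, and Evx1 and Evx2, beside the posterior ends of the A and D clusters, had 1 and 2 counts.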

How the data were processed

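RNA was sequenced from 4 YFP-positive and 4 YFP-negative libraries made with Takara's SMARTer low-input kit for stranded total RNA, per the labels' protocols. Per the submitters' processing notes, the tools named are STAR 2.7.3a, featureCounts 2.0.1, cutadapt 3.4 and DESeq2, and the build is GRCm38. The annotation release and the settings of the counting were not given in the sources used here. Raw counts per gene were taken from the table as deposited, in whole numbers. The authors' normalised values (a score in whole numbers, made with size factors per the file headers) and their mean signal over the 8 libraries were not used. Of their log2 fold changes and p-values, per the file headers, only adjusted p-values are quoted. They are given for the tested HOX genes and for the named related genes called with the block. Gene bodies and overlaps came from GENCODE M21, which held 53706 of the 53801 identifiers.

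The deposited counts were tested with edgeR 4.0.16 (R 4.3.3): filterByExpr by group, TMM, and the robust quasi-likelihood test of group with no other term. P-values are two-sided with Benjamini-Hochberg adjustment over 15945 genes, and a call means an adjusted p up to 0.05. CPM values use TMM-scaled library sizes. One count filter, 1 CPM on average, defined detection. Total counts of 12481608 to 29385718 put a floor of 3 counts at 0.101 to 0.256 CPM per library (counting error only). Differences among replicate numbers were tested with an F test in the fit with group and number. The scripts were tested on simulated data. Every HOX gene was accounted for; given in each library were the 3 highest per kb of each cluster, every called gene, and the 3 with the lowest p in each fit, and, from each list of related genes, up to 3 with the lowest blocked p or the 3 most abundant. The genes, lists and rules were chosen with earlier results of these data known, and some genes that the rules took are not reported here.

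Groups and numbers came from the sample titles. Libraries of a group did not agree within sampling noise (chi-square per degree of freedom 55.9 to 134.2), so each counted as 1 sample. Deviations from the group means correlated at 0.233, 0.487, 0.376 and 0.376 between libraries of equal number, and at most at 0.0456 between different numbers, so the numbers pair the samples by the data and not by the labels; the fit with the number as a block is given where it changes a call. Alternatives were DESeq2 1.42.0, limma voom (limma 3.58.1), RLE factors, library sizes alone, looser and stricter filters, the block, other detection levels and exon lengths, and each library or number left out.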

Additional observations from a re-analysis of the deposited data

Results flagged for a closer look

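In groups of 4 libraries, a highest or lowest value was marked when its gap to the nearest other library passed Dixon's 95% critical value as a share of the group's range; 50 groups were looked at, and chance marks about 1 in 20. YFP-positive 3 was marked for 3 HOX genes: Hoxd8 at 43.4 CPM, where the other YFP-positive libraries had 14.0 to 16.4, Hoxb6 at 19.3 CPM, where they had 9.78 to 10.3, and Hoxa2 at 8.48 CPM, where they had 6.79 to 6.89. For Hoxd8 and Hoxb6 the YFP-negative library of the same number was also the highest of its fraction, at 33.6 and 19.2 CPM; for Hoxa2 it had 5.40 CPM and was not.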

How the results depend on the processing

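The call of 0 HOX genes between YFP-positive and YFP-negative cells held in every setting tried, with or without a library left out, and 13 genes were detected whichever library was left out (12 at a mean of 2 CPM, or at 1 CPM in every library). The count over all genes did not hold. Without a block edgeR called 0 genes and DESeq2 called 2. With the replicate number as a block, which pairs the libraries, edgeR called 364 (111 higher, 253 lower), RLE factors gave 364 (99 and 265), library sizes alone 365 (212 and 153), and DESeq2 526 (169 and 357); leaving out libraries gave 0 to 426 genes, with 194, 426, 157 and 167 in the blocked fit without number 1, 2, 3 or 4. Library sizes alone moved the median of all genes by 0.086 (log2). Among replicate numbers, 3299 to 5917 genes were called with 1 number left out (3299 without number 2, against 6270 with all), and 1 to 6 HOX genes (1 without number 3). With all libraries the HOX count among replicate numbers was 6, and 7 with library sizes alone or with the looser filter, each adding Hoxb3. The cause of these shifts was not tested, beyond that fewer libraries were fitted where some were left out.

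Over 285 alternative log2 fold changes of the 13 HOX genes, 259 kept their direction and 26 in 10 genes turned, with 0 calls. Hoxb5 turned to 0.021 with library sizes alone and 0.022 with the block added, and Hotairm1 to -0.015 with limma voom. Leave-one-out log2 fold changes ran from -0.38 to 0.49 for Hoxa7, -0.010 to 0.24 for Hoxb2, -0.072 to 0.20 for Hoxb3, -0.026 to 0.14 for Hoxb4, -0.19 to 0.018 for Hoxb5, -0.32 to 0.61 for Hoxb7, -0.59 to 0.086 for Hoxb8, -0.12 to 0.35 for Hoxc5, -0.27 to 0.78 for Hoxd8, -0.11 to 0.21 for Rxra, -0.11 to 0.22 for Rara, -0.13 to 0.15 for Hotairm1 and -0.18 to 0.79 for Hoxaas2. They kept their sign but moved by over 1.5 times from the value with all libraries for Hoxc4 (0.087 without YFP-positive 3 to 0.68 without YFP-negative 3), Hoxa2 (0.26 without YFP-negative 1 to 0.86 without number 4, blocked), Hoxb6 (-0.56 without YFP-positive 3 to -0.11 without number 4, blocked) and Kdm6b (-0.51 without YFP-positive 2 to -0.13 without YFP-positive 4). So did Hoxaas3 (0.10 without YFP-positive 4 to 0.41 without YFP-positive 2). The sign was also kept for Nkx2-3 (0.24 to 0.51), Tbx2 (0.34 to 0.68), Osr1 (-0.90 to -0.54) and Meis2 (-0.34 to -0.22). Other end values, within the blocked or the unblocked fits, were 0.010 for Hoxb5 and -0.087 for Hotairm1 (blocked, without number 1), -0.0010 for Hoxb4 (without YFP-positive 3), -0.17 for Hoxb5 (without YFP-negative 2), -0.054 for Hoxb3 (without YFP-negative 1) and -0.059 for Hotairm1 (without YFP-positive 2). Depth limits genes under about 1 CPM, and counting over gene bodies hides 8 HOX genes at any depth.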
